A study of Mus musculus with 16 samples.

Results

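Small leucine-rich proteoglycans are secreted proteins of the extracellular matrix, and 10 of their genes were followed here in the mouse hippocampus: Bgn, Dcn, Aspn, Ecm2, Fmod, Lum, Prelp, Omd, Ogn and Podn. The members, biglycan and relatives, were chosen by name from the gene-name column of the deposited expression table, with earlier results of these data known. They are 10 of the 22572 gene names in that table. They are not every relative in it, and 8 other or related genes are described later. Messenger RNA was sequenced from the hippocampus of male C57BL/6 mice in 16 libraries, 4 in each of 4 groups. Mice of WT control genotype drank regular water (WT water) or water with 15% (w/v) fructose (WT fructose), and mice with a knockout of the X-linked Bgn gene, labelled Bgn0/-, drank the same (BgnKO water, BgnKO fructose). The drinks were given for 6 weeks from 3 months of age, and within each genotype the drink groups started with similar body mass and composition. The labels name no other allele, no Cre driver and no pooling of animals, and they do not say that replicates are separate animals. The p-values therefore measure the spread between these libraries, which may be technical. The stretch of Bgn removed by the knockout is not stated in the labels.

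The core proteins of these genes share leucine-rich repeats, and most carry chondroitin sulfate, dermatan sulfate or keratan sulfate chains. They bind fibrillar collagens and control how collagen fibrils assemble, and several also bind growth factors of the TGF-beta family. Biglycan released from the matrix can act on Toll-like receptors of immune cells, and in brain tissue the genes are best known from fibroblasts of the meninges and of vessel walls.

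Members lay in a few genomic groups (mm10, the GRCm38 assembly, gene spans from GENCODE). Ecm2 (chromosome 13, 49504810 to 49532789), Aspn (49544443 to 49567565), Omd (49582462 to 49592822) and Ogn (49608046 to 49624501) followed each other on the plus strand. All 4 lay inside the minus-strand gene Cenpp, whose level was 0.820 FPKM on average and whose exons shared 7 bases with those of Aspn and 0 with those of the other three. Dcn (chromosome 10, 97479609 to 97518143) and Lum (97565128 to 97572703) were neighbours on the plus strand, and Prelp (chromosome 1, 133910304 to 133921414, minus strand) and Fmod (134037254 to 134048277, plus strand) were neighbours on opposite strands. Bgn (chromosome X, 73483602 to 73495933, plus strand) and Podn (chromosome 4, 108014791 to 108096445, minus strand) had no other member beside them. Promoter windows of 250 bases before the start were taken from RefSeq GRCm38.p6, which matched 8 of the 10 members. The windows of the targeted gene and of 3 chromosome 13 genes, Ogn, Ecm2 and Aspn, whose differences between genotypes are given later, are shown on their plus strand. Capitals mark matches, on either strand, to the TATA box letters TATAAA, the CCAAT box letters CCAAT or the GC box letters GGGCGG.
Bgn, chrX:73483351-73483600: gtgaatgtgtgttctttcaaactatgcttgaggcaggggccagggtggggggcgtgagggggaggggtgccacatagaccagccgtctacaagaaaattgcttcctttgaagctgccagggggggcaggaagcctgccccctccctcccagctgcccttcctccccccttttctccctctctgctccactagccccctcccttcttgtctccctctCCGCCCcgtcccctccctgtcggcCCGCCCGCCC
Ogn, chr13:49607765-49608014: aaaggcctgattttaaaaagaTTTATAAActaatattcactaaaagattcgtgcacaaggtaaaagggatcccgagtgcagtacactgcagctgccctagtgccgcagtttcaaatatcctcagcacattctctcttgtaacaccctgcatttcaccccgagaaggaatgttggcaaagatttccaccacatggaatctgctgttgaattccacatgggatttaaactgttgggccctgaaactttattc
Ecm2, chr13:49504560-49504809: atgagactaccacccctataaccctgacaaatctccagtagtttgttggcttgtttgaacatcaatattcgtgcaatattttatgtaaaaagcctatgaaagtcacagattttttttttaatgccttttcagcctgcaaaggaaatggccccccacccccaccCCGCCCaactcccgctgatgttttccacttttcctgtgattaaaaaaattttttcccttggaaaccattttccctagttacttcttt
Aspn, chr13:49544193-49544442: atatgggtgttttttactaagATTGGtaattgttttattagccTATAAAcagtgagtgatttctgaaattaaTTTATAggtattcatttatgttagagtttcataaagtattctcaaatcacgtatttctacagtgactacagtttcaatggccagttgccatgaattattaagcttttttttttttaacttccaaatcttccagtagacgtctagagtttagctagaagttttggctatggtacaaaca
The Bgn window was rich in G and C (64.4%) and held 3 matches to GGGCGG, a pair of them overlapping, with no TATAAA. The chromosome 13 windows held less G and C, at 42% for Ogn, 40% for Ecm2 and 30% for Aspn, against a median of 52.4% over the 32851 windows of the table. Ogn held TATAAA on both strands in 1 overlapping stretch, Aspn held it at 2 places and also held CCAAT, and Ecm2 held 1 GGGCGG. Of all windows 12.4% held TATAAA, 33.9% CCAAT and 32.7% GGGCGG.

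Levels are given in FPKM, which counts fragments relative to transcript length and library size, as the authors deposited them. The number of reads behind them is unknown, so no counting interval can be given. Named genes summed to 342721 to 376209 FPKM per library. Hippocampal neuron markers were present in every library, with a sum over 10 genes of 299 to 520 FPKM. Replicate 1 of each group stood apart: the root mean square log2 difference of 2 libraries had a median of 0.380 between replicate 1 and the others and 0.276 within replicates 2 to 4. Genotype results are therefore also given with a term for replicate 1 and in replicates 2 to 4 alone. Replicate 1 has 1 library per group, so it was not fitted alone. Its libraries stay in the fit with the term, whose log2 folds equal those without the term, and only the fit of replicates 2 to 4 leaves them out. In whole tissue, fewer cells of a type and less RNA per cell cannot be told apart.

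Dcn, whose product decorin coats collagen fibrils, was the most abundant member, with 39.6 ± 11.9 FPKM (SD, n = 16) and 38.2% of the summed FPKM of the 10 genes. Prelp, which encodes a proteoglycan that links heparan sulfate to collagen, followed with 20.2 ± 6.79 FPKM (SD, n = 16), and Dcn was above it in 15 of 16 libraries. Fmod (13.1 ± 7.59), Bgn (11.3 ± 6.63) and Ogn (8.86 ± 3.17, SD, n = 16 each) came next. The place of Bgn among these 3 differed by genotype. In the WT libraries Bgn (16.01 ± 6.42 FPKM) was above both Fmod (9.74 ± 4.999) and Ogn (6.91 ± 1.39, SD, n = 8 each) in 8 of 8. In the BgnKO libraries Bgn (6.50 ± 1.14 FPKM) was below Ogn (10.8 ± 3.31) in 8 of 8 and above Fmod (16.6 ± 8.48, SD, n = 8 each) in 1 of 8. Ecm2, at 3.58 ± 0.696 FPKM, and Lum, at 3.54 ± 1.84 FPKM (SD, n = 16 each), also did not separate. Both were above Omd (1.20 ± 0.629), Aspn (1.19 ± 0.390) and Podn (1.04 ± 0.347, SD, n = 16 each), which overlapped one another and lay close to the minimum mean of 1 FPKM for testing. All 10 members passed that minimum, which 12648 genes reached. The mean of replicate 1 was below that of replicates 2 to 4 for all 10 members, from 32.8% of it for Fmod and 41.1% for Omd to 91.1% for Ecm2. Replicate 1 was the lowest library of every group for Bgn, Prelp and Podn.

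**Figure D1:**
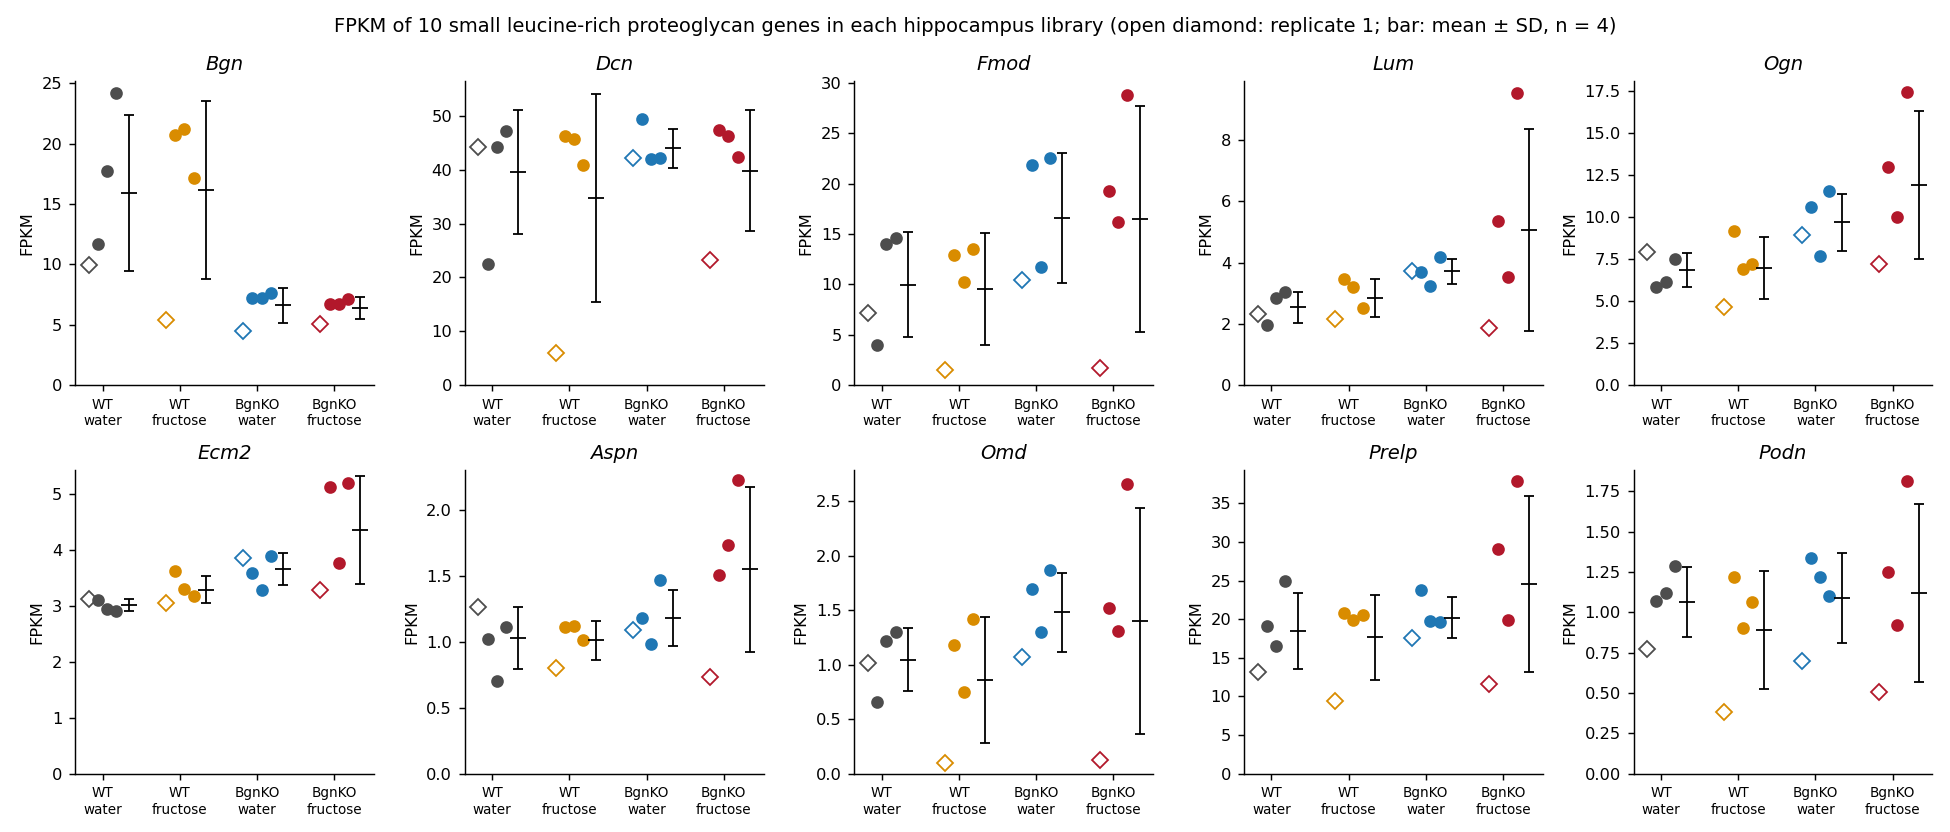
FPKM of each of the 10 genes (vertical axis) in the 16 libraries of the 4 groups (horizontal axis), with open diamonds for replicate 1, filled circles for replicates 2 to 4, and bars for the mean ± SD of 4 libraries. Bgn is at 4.46 to 7.60 FPKM in the 8 BgnKO libraries, and the 2 fructose replicate 1 libraries are lowest in their groups for every gene.

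Bgn, the targeted gene, was lower in the knockout but did not reach 0 in any library. In WT water the libraries had 9.94, 11.7, 17.7 and 24.2 FPKM (replicates 1 to 4), and in BgnKO water 4.46, 7.23, 7.19 and 7.60 FPKM. In WT fructose they had 5.42, 20.7, 21.2 and 17.2 FPKM, and in BgnKO fructose 5.02, 6.69, 6.73 and 7.11 FPKM. On water the groups did not overlap, while on fructose the library labelled WT fructose replicate 1 lay inside the BgnKO range and the other 3 WT libraries lay above it. Over both drinks BgnKO kept 40.6% of the WT level (2-sided exact permutation test of the FPKM, p = 0.00109, n = 8 each).

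The table lists Bgn at 2 loci, both lower in BgnKO. It gives no strand for them. The names plus-strand and minus-strand locus were inferred from the order in which the table lists the loci. On the plus strand, where the gene is annotated, the level was 4.02 ± 0.550 FPKM in BgnKO and 8.62 ± 2.83 in WT (SD, n = 8 each), or 46.6% of WT (exact permutation p = 0.000777). On the minus strand it was 2.49 ± 1.22 against 7.40 ± 3.81 FPKM (SD, n = 8 each), or 33.6% (exact permutation p = 0.00668). In replicates 2 to 4 the plus-strand level was 4.03 ± 0.599 against 9.60 ± 2.33 FPKM and the minus-strand level 3.07 ± 0.686 against 9.19 ± 2.18 FPKM (SD, n = 6 each), with an exact permutation p of 0.00217 for each locus, and no library of one genotype lay inside the range of the other. Replicate 1 holds 2 libraries per genotype, with an exact permutation p of 0.667 on the plus strand and 0.333 on the minus strand (n = 2 each). No annotated gene overlaps Bgn on the minus strand. The minus-strand share of Bgn FPKM was 12.5 to 26.3% (median 22.8%) in the 4 replicate 1 libraries and 26.7 to 54.1% (median 47.0%) in the other 12. The cause of this difference was not tested. The part that reads from an undeleted stretch of the gene have in the remaining level was not tested.

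**Figure D2:**
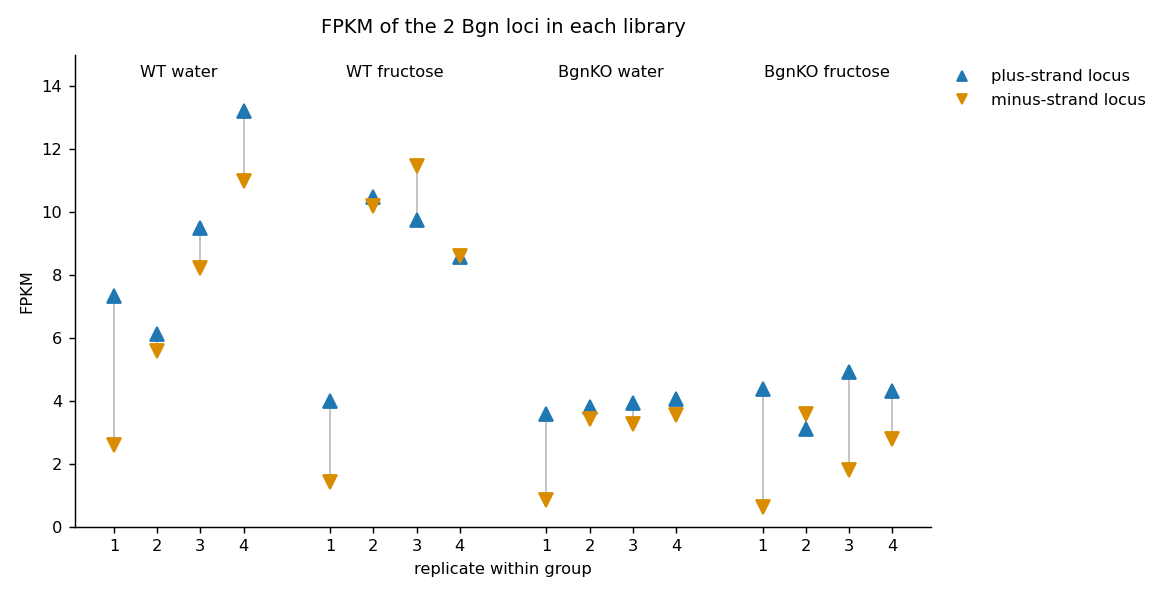
FPKM (vertical axis) of the plus-strand locus (upward triangles) and the minus-strand locus (downward triangles) of Bgn in each library (horizontal axis, replicates 1 to 4 in each group), joined by a line within a library. Strands are inferred from the order of the loci. The plus-strand locus is at 3.11 to 4.93 FPKM in BgnKO. The gap between the loci is widest relative to the level in replicate 1 of each group, where the minus-strand share is 12.5 to 26.3%.

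On the log2(FPKM + 1) scale, in the limma fit over all 12648 tested genes, Bgn fell by 1.08 in BgnKO over the mean of both drinks (SE 0.24, 95% interval -1.59 to -0.57, adjusted p = 0.0168, lower in 8 of 8 libraries than the WT mean). It was the 1 member of 10 that passed in this comparison, in which 4.99% of all tested genes passed. Within a drink no member passed, against 0.387% of tested genes on water and 3.76% on fructose. The Bgn values there were -1.09 (SE 0.34, limma adjusted p = 0.370) on water and -1.07 (SE 0.34, adjusted p = 0.0869) on fructose. With a term for replicate 1 limma called Bgn on water (adjusted p = 0.0193), on fructose (0.00591) and over both drinks (0.000398). In replicates 2 to 4 its log2 fold was -1.12 on water (limma adjusted p = 0.0166), -1.40 on fructose (0.00242) and -1.26 over both (0.000229). With the library labelled WT fructose replicate 1 left out, Bgn passed on both drinks, with a limma adjusted p of 0.0453 on water, where 0.435% of tested genes passed, and 0.00491 on fructose, where 2.79% passed. The flanking genes did not pass: over both drinks Haus7, a microtubule-associated protein gene, had -0.09 (limma adjusted p = 0.542) and Atp2b3, a calcium pump gene, -0.10 (0.621).

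The other 9 members were on average higher in BgnKO, but none passed in the main fit. That fit used log2(FPKM + 1) and all 16 libraries, with no term for replicates and no further normalization. Near the threshold, Ogn passed over both drinks with a pseudocount of 0.1 (limma adjusted p = 0.0497) and Ecm2 with quantile normalization (0.0487). Their log2 folds over both drinks were 0.08 for Podn to 0.67 for Fmod, and the median over all 10 members was 0.21 on water, 0.35 on fructose and 0.28 over both, where the median of all tested genes was -0.0011, -0.011 and -0.0052. In each of these comparisons 9 of 10 members lay higher in BgnKO, while 49.4%, 47.5% and 48.1% of tested genes did. At an unadjusted p under 0.05 there were 1, 3 and 4 members of 10, against 5.33%, 21.3% and 21.1% of tested genes. The groups on water did not overlap for 3 members, Bgn, Lum and Ecm2, and this was so for 4.01% of tested genes. On fructose and over both drinks 0 members had groups that did not overlap, against 11.0% and 1.19% of tested genes.

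**Figure D3:**
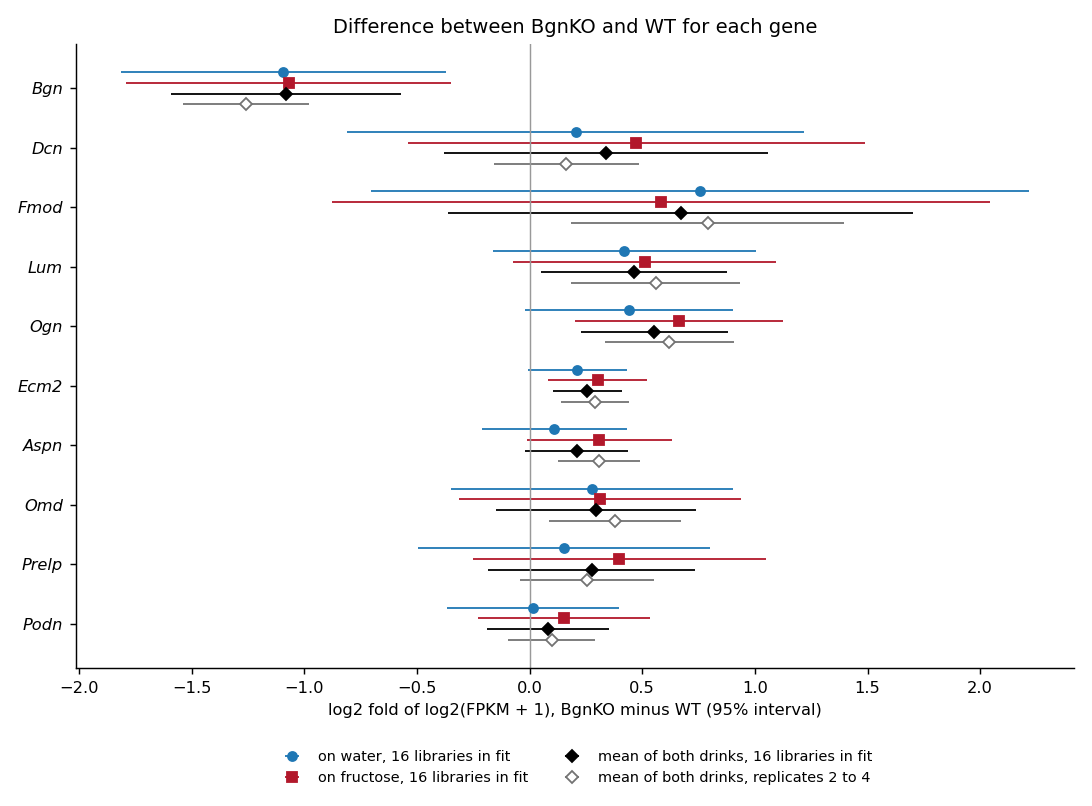
Log2 fold of log2(FPKM + 1) for BgnKO minus WT (horizontal axis) with its 95% interval for each gene (vertical axis), on water (circles), on fructose (squares) and over both drinks (filled diamonds) in the fit of 16 libraries, and over both drinks in replicates 2 to 4 (open diamonds). Bgn lies at -1.26 to -1.07, and the other 9 genes lie above 0 by 0.01 (Podn on water) to 0.79 (Fmod in replicates 2 to 4), many with intervals that include 0.

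Of the class that biglycan and decorin form, Dcn showed no difference that passed. Its FPKM was 44.3, 22.4, 44.2 and 47.3 in WT water, 42.2, 49.5, 42.1 and 42.3 in BgnKO water, 5.98, 46.4, 45.7 and 41.0 in WT fructose and 23.2, 47.4, 46.3 and 42.5 in BgnKO fructose. Dcn lay above 40 FPKM in 13 of 16 libraries of all 4 groups, and the 3 below were WT water replicate 2 and both fructose replicate 1 libraries. The log2 fold over both drinks was 0.34 (SE 0.34, 95% interval -0.38 to 1.06, limma adjusted p = 0.613) and 0.16 in replicates 2 to 4. On water it was 0.20. On fructose it was 0.47, and -0.20 when the library labelled WT fructose replicate 1 was left out.

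Aspn, which encodes asporin, a collagen-binding protein with a run of aspartates, had 1.03 ± 0.236 FPKM in WT water and 1.18 ± 0.209 in BgnKO water (SD, n = 4 each). On fructose its libraries had 0.803, 1.12, 1.12 and 1.01 FPKM in WT and 0.730, 1.51, 1.74 and 2.23 in BgnKO. The 3 highest libraries of all were BgnKO fructose replicates 2 to 4, while replicate 1 of that group was below every WT fructose library. The log2 fold over both drinks was 0.21 (SE 0.11, limma adjusted p = 0.281). In replicates 2 to 4 Aspn rose by 0.43 on fructose (limma adjusted p = 0.0409) and by 0.31 over both drinks (0.0353), whereas with a term for replicate 1 it did not pass (0.136 and 0.155).

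Ecm2 encodes a matrix protein with a leucine-rich region close to that of decorin, and its level varied least of the 10 relative to its mean. It had 3.13, 3.10, 2.94 and 2.91 FPKM in WT water and 3.86, 3.59, 3.28 and 3.90 in BgnKO water. On fructose it had 3.06, 3.62, 3.30 and 3.18 FPKM in WT and 3.29, 5.14, 3.78 and 5.21 in BgnKO. Every BgnKO water library was above every WT water library, and on fructose BgnKO replicate 1 lay among the WT libraries. Over both drinks the log2 fold was 0.26 (SE 0.07, 95% interval 0.10 to 0.41, limma adjusted p = 0.0545), and all 8 BgnKO libraries were above the WT mean.

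The next genes form the class of fibromodulin, lumican, PRELP and osteomodulin. Fmod, which encodes a keratan sulfate proteoglycan of tendon and other collagen-rich tissue, had 7.20, 3.98, 14.0 and 14.6 FPKM in WT water and 10.4, 21.8, 11.7 and 22.5 in BgnKO water. On fructose it had 1.44, 12.9, 10.2 and 13.5 FPKM in WT and 1.70, 19.3, 16.2 and 28.8 in BgnKO. In replicates 2 to 4 every BgnKO fructose library was above every WT fructose library, while both replicate 1 libraries were below 2 FPKM. The log2 fold over both drinks was 0.67 (SE 0.49, 95% interval -0.36 to 1.70, limma adjusted p = 0.459) and 0.79 in replicates 2 to 4 (adjusted p = 0.0797). Its value on fructose, 0.58, was -0.02 when the library labelled WT fructose replicate 1 was left out, and 1.34 without BgnKO fructose replicate 1.

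Lum, whose product lumican orders the collagen of the cornea, had 2.31, 1.95, 2.85 and 3.05 FPKM in WT water and 3.74, 3.70, 3.22 and 4.19 in BgnKO water, with no overlap. On fructose it had 2.16, 3.48, 3.22 and 2.51 FPKM in WT and 1.85, 5.35, 3.53 and 9.54 in BgnKO. The 9.54 FPKM of BgnKO fructose replicate 4 was the highest value of Lum in any library, and replicate 1 of the same group was the lowest. The log2 fold over both drinks was 0.47 (SE 0.19, limma adjusted p = 0.179), with an adjusted p of 0.0538 in replicates 2 to 4.

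Prelp had 18.4 ± 4.94 FPKM in WT water, 17.7 ± 5.53 in WT fructose, 20.2 ± 2.60 in BgnKO water and 24.6 ± 11.4 in BgnKO fructose (SD, n = 4 each). Omd, whose product osteomodulin was found in bone, had 1.05 ± 0.289, 0.861 ± 0.579, 1.48 ± 0.363 and 1.40 ± 1.04 FPKM in the same order (SD, n = 4 each). The groups overlapped for both genes, and Omd was at 0.0969 FPKM in the library labelled WT fructose replicate 1 and at 0.126 in BgnKO fructose replicate 1. Over both drinks the log2 fold was 0.27 (SE 0.22, limma adjusted p = 0.502) for Prelp and 0.29 (SE 0.21, adjusted p = 0.446) for Omd. Podn, which encodes podocan, first described in the kidney, had group means of 0.893 to 1.12 FPKM and a log2 fold of 0.08 (SE 0.13, 95% interval -0.19 to 0.35, limma adjusted p = 0.765). Its direction on water, 0.01, turned to -0.01 with quantile normalization.

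Ogn, which encodes osteoglycin or mimecan, had the smallest p over both drinks after Bgn. It had 7.93, 5.82, 6.15 and 7.48 FPKM in WT water and 8.93, 10.6, 7.71 and 11.5 in BgnKO water. On fructose it had 4.65, 9.19, 6.91 and 7.19 FPKM in WT and 7.23, 13.0, 9.997 and 17.5 in BgnKO. The 5 highest libraries of all were BgnKO libraries, and the groups overlapped on water through BgnKO replicate 3 and on fructose through BgnKO replicate 1. The log2 fold was 0.44 on water (SE 0.22, limma adjusted p = 0.973), 0.66 on fructose (SE 0.22, adjusted p = 0.0958) and 0.55 over both (SE 0.15, 95% interval 0.23 to 0.88, adjusted p = 0.0503), and all 8 BgnKO libraries were above the WT mean.

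Without replicate 1, or with a term for it, Ogn and Ecm2 passed the threshold on fructose and over both drinks. With the term, limma gave Ogn an adjusted p of 0.0320 on fructose and 0.0150 over both, and Ecm2 0.0464 and 0.0214. In replicates 2 to 4 Ogn rose by 0.70 on fructose (limma adjusted p = 0.0358) and 0.62 over both (0.0136), and Ecm2 by 0.38 (0.0349) and 0.29 (0.0225). Many more genes passed in these fits: with the term 0.996% of tested genes on water, 17.3% on fructose and 18.0% over both, where 1, 3 and 3 members passed, and in replicates 2 to 4 0.625%, 10.9% and 12.6%, where 1, 4 and 4 members passed. A single library decides this for several members. Without BgnKO fructose replicate 1 limma called Lum (adjusted p = 0.0360), Ogn (0.0234), Ecm2 (0.0215) and Aspn (0.0265) on fructose, where 7.43% of tested genes passed, and Lum, Ogn, Ecm2, Aspn and Bgn over both drinks, where 8.39% passed. Over both drinks Ogn also passed without WT water replicate 1 (limma adjusted p = 0.0494) and without WT fructose replicate 2 (0.0421). Without BgnKO fructose replicate 4 the fructose log2 folds of these 4 were 0.19 for Lum, 0.47 for Ogn, 0.23 for Ecm2 and 0.18 for Aspn, with limma adjusted p-values of 0.753, 0.307, 0.329 and 0.633.

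Fructose gave no difference among members that passed in either genotype. In WT, limma called 0 members and 0.00791% of tested genes, in BgnKO 0 members and 0%, over both genotypes 0 members and 0.00791%, and for the interaction of genotype and drink 0 members and 0.00791%. At an unadjusted p under 0.05 there were 0 members in each of these comparisons, against 263 genes (2.08%) in WT, 1630 (12.9%) in BgnKO, 1367 (10.8%) over both genotypes and 368 (2.91%) for the interaction. Ecm2 had a log2 fold of 0.09 in WT and 0.18 in BgnKO (SE 0.10 each), and Ogn had 0.0034 and 0.22 (SE 0.22 each). The sign of several values rested on replicate 1. Dcn had -0.46 in WT and -0.19 in BgnKO (SE 0.48 each), but 0.29 and 0.03 in replicates 2 to 4. Fmod had -0.20 and -0.37 (SE 0.69 each), but 0.32 and 0.20. Bgn had -0.05 in WT and -0.03 in BgnKO (SE 0.34 each), and its WT value was 0.18 in replicates 2 to 4. The 95% interval of the Bgn value in WT was -0.78 to 0.67.

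Levels of the members other than Bgn varied together across the 16 libraries. Pearson's r of log2(FPKM + 1) was 0.29 to 0.97 over the 36 pairs without Bgn (median 0.76). Of these pairs, 32 had a permutation p under 0.05 after Benjamini-Hochberg adjustment over all 55 relations computed (100000 permutations each). In replicates 2 to 4 the range of r was 0.14 to 0.93. With the 2 libraries farthest from the median of the first gene left out it was 0.06 to 0.90. The permutations, here and for the marker sum below, ran over all 16 libraries without regard to group or replicate. Their p-values therefore also take in differences shared by a group or by replicate 1. Fmod and Omd were the closest pair, with r = 0.97 and Spearman's rho = 0.97 (permutation adjusted p = 0.000137 and 0.000550), r = 0.90 without the 2 farthest libraries and 0.91 in replicates 2 to 4. Ogn and Ecm2, neighbours on chromosome 13, had r = 0.89 and rho = 0.84 (adjusted p = 0.000137 and 0.00110), with 0.81 without the 2 farthest libraries and 0.93 in replicates 2 to 4. The 9 pairs with Bgn had r of -0.43 to 0.35 and 0 passed. When the mean of its group was taken from each library, however, Bgn had r = 0.84 with Dcn, 0.75 with Fmod, 0.74 with Podn and 0.73 with Prelp, as a description over the 16 libraries with no test. Restricted to replicates 2 to 4 they were 0.87 with Dcn, 0.71 with Fmod, 0.24 with Podn and 0.32 with Prelp, while without taking group means away the 9 pairs had -0.65 to 0.005 there.

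**Figure D4:**
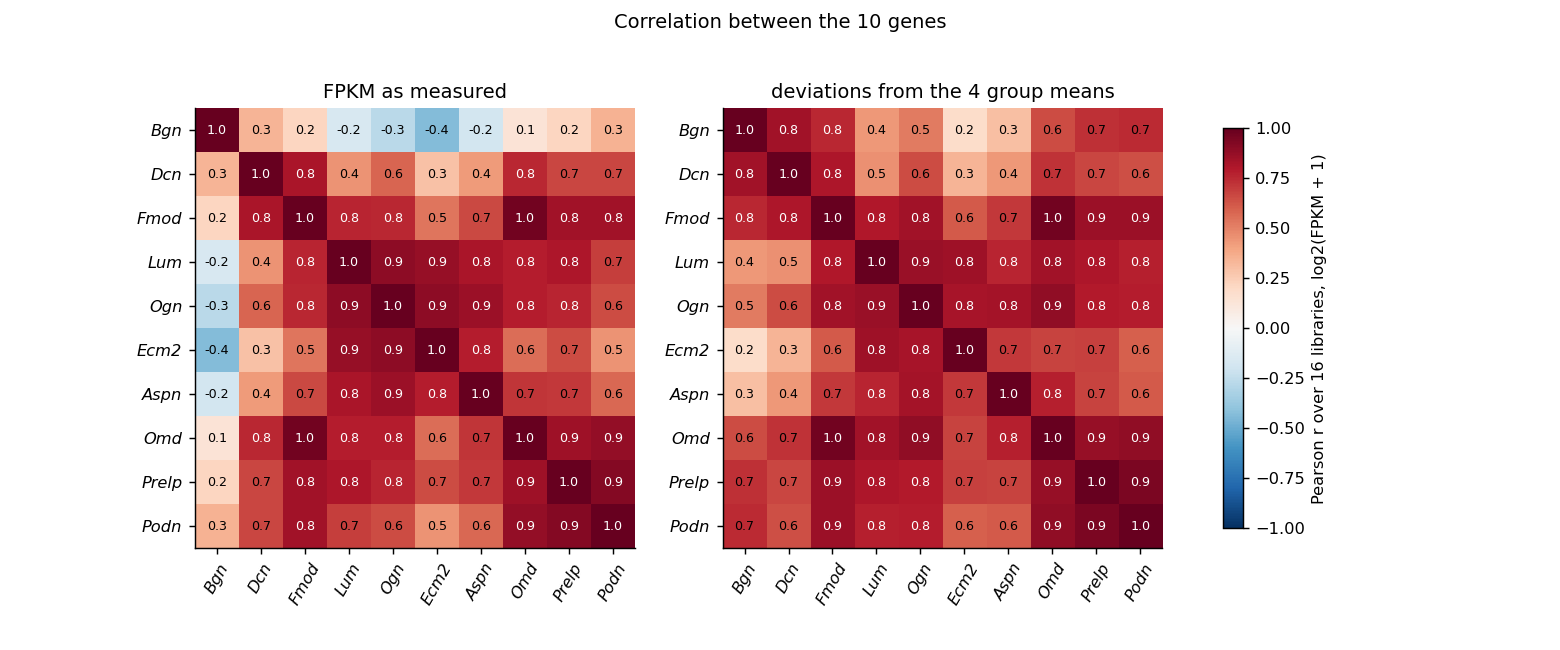
Pearson's r of log2(FPKM + 1) between each pair of the 10 genes over 16 libraries (colour and printed value), for the FPKM as measured (left) and after the mean of its group was taken from each library (right). Bgn stands apart on the left, at -0.43 to 0.35, and has 0.18 to 0.84 on the right.

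Markers of meninges and fibroblasts moved with the members. All 15 tested markers of that list were higher in BgnKO on water, on fructose and over both drinks (median log2 fold 0.41, 0.37 and 0.42). In the main fit 0 passed, against 0.387%, 3.76% and 4.99% of tested genes. In replicates 2 to 4, where 12.6% of tested genes passed over both drinks, 8 of these markers passed. With a term for replicate 1, where 18.0% passed, 2 of these markers did. Their summed FPKM, over 19 genes, was 71.3 to 151 in WT water, 43.2 to 145.0 in WT fructose, 144.0 to 183 in BgnKO water and 57.3 to 289 in BgnKO fructose, and 0 of the genes were at 0 in all libraries. The lowest sum was in the library labelled WT fructose replicate 1 and the highest in BgnKO fructose replicate 4, and the summed FPKM of the 10 members was lowest (33.4) and highest (155) in the same libraries. Mgp, Slc6a20a and Slc6a13 had the highest levels in the list.

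Across libraries, 9 of the 10 members followed that sum. Fmod had r = 0.96 and rho = 0.89 with it (permutation adjusted p = 0.000137 and 0.000687, n = 16), with r = 0.89 without the 2 farthest libraries and 0.92 in replicates 2 to 4. Omd had r = 0.94 (0.85 and 0.86 in those subsets), Dcn 0.84 (0.68 and 0.69), Lum 0.81 (0.89 and 0.90) and Ogn 0.81 (0.85 and 0.85). Ecm2 had the lowest r of the 9, at 0.59 (rho = 0.68, permutation adjusted p = 0.0274 and 0.0113), with 0.69 and 0.70 in the subsets, and Podn had 0.80, or 0.50 without the 2 farthest libraries. Bgn did not follow it (r = 0.15, rho = -0.01, permutation p = 0.583 and 0.960), and had -0.42 in replicates 2 to 4. Pericyte and smooth muscle markers summed to 108 to 203 FPKM in WT water, 94.8 to 192 in WT fructose, 159.6 to 229 in BgnKO water and 93.3 to 271 in BgnKO fructose, with r of 0.53 (Ecm2) to 0.95 (Fmod) with the same 9 members. In replicates 2 to 4 r was 0.38 (Podn) to 0.88 (Fmod). Over both drinks 10 of these 14 markers were higher in BgnKO (median log2 fold 0.32) and 0 passed, against 4.99% of tested genes. Pdgfrb and Vtn passed in replicates 2 to 4, both higher, where 12.6% of tested genes passed. With the term for replicate 1, where 18.0% passed, Pdgfrb did. Choroid plexus markers, at 818 to 9309.8 FPKM in 15 libraries and 239 in the library labelled WT fructose replicate 1, had r of 0.34 to 0.67 with the 9 members other than Bgn. Within replicates 2 to 4 they were 0.59 for Prelp and 0.52 for Podn, but -0.16 for both Fmod and Dcn, which had 0.42 and 0.67 over all libraries. All 15 of them were higher in BgnKO on fructose and 7 on water, and 0 passed, against 3.76% and 0.387% of tested genes. Their part in the differences of the members between genotypes was not tested.

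**Figure D5:**
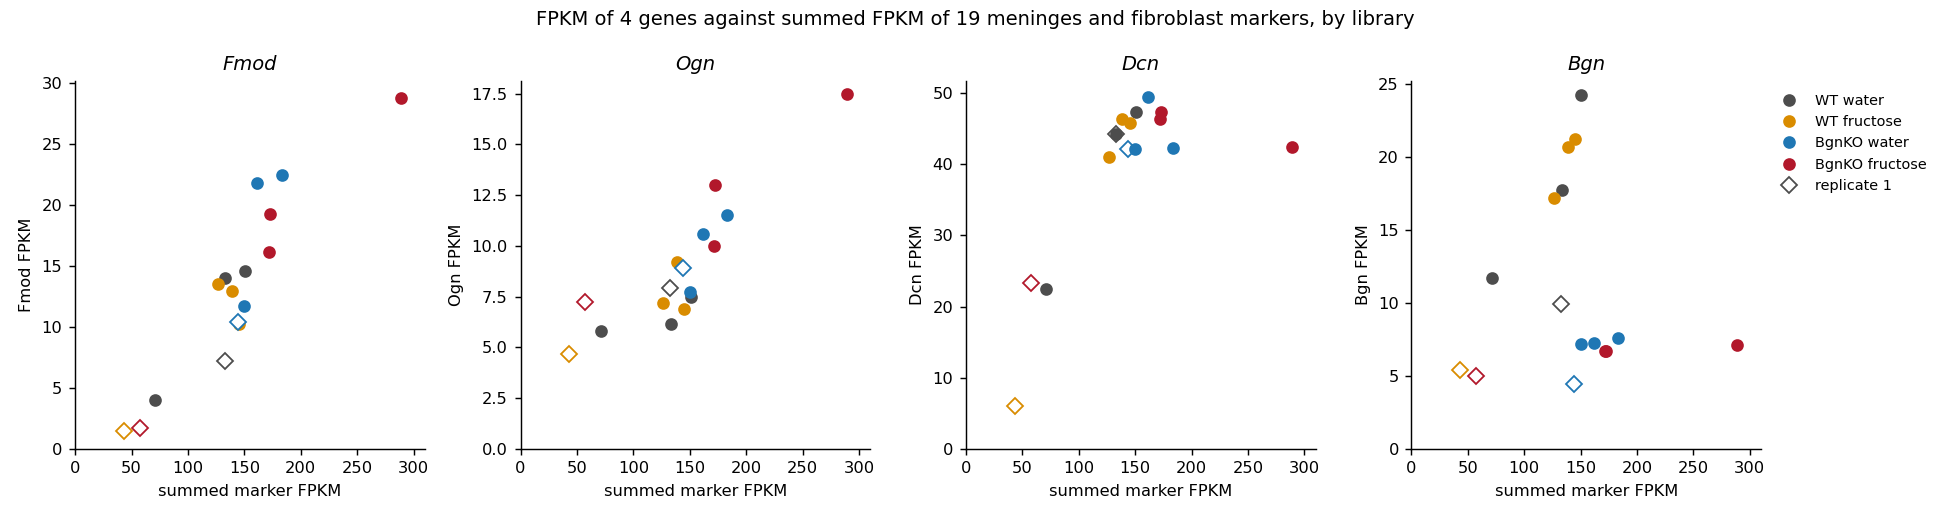
FPKM of Fmod, Ogn, Dcn and Bgn (vertical axes) against the summed FPKM of 19 markers of meninges and fibroblasts (horizontal axes) in each library, coloured by group, with open diamonds for replicate 1. Fmod and Ogn climb with the sum, Dcn lies above 40 FPKM in the 13 libraries with sums of over 100 FPKM, and Bgn lies at 4.46 to 7.60 FPKM in BgnKO at every sum.

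Astrocyte markers differed between genotypes as well, with 5 of 11 called higher in BgnKO on fructose and 6 of 11 over both drinks. Of all tested genes 3.76% passed on fructose and 4.99% over both drinks, in either direction. The 4.99% is also the share for the other marker lists of this paragraph, given over both drinks. Gfap, the intermediate filament of astrocytes, had a log2 fold of 0.47 over both drinks (SE 0.10, limma adjusted p = 0.0161), and the other 5 called, Fgfr3, Gja1, Slc39a12, Aqp4 and Sox9, had 0.31 to 0.42. Over the 16 libraries, as a description, r with the summed astrocyte markers was 0.64 for Ogn and Aspn and 0.62 for Ecm2, 0.35 for Fmod and 0.12 for Dcn. In replicates 2 to 4 it was 0.68 for Ogn, 0.78 for Aspn, 0.64 for Ecm2, 0.50 for Fmod and -0.04 for Dcn. Of 10 hippocampal neuron markers, 9 were lower in BgnKO over both drinks and Wfs1, an endoplasmic reticulum protein of CA1 neurons, passed (log2 fold -0.56, limma adjusted p = 0.00127). The 9 members other than Bgn were lower where the sum of these neuron markers was higher, with r of -0.93 for Ogn, -0.87 for Aspn, -0.85 for Lum and Omd and -0.78 for Ecm2, and -0.60 for Dcn as the weakest. For Ogn, Aspn, Lum and Ecm2 these were larger in size than r with the meninges and fibroblast sum over the 16 libraries. In replicates 2 to 4 this turned for Lum, with -0.85 against 0.90. It turned the other way for Prelp (-0.72 against 0.67) and Podn (-0.65 against 0.58), where r with the neuron markers became the larger in size. The range of r with the neuron markers in replicates 2 to 4 was -0.91 (Ogn) to -0.29 (Dcn). Bgn had 0.25 with them over all libraries and 0.75 in replicates 2 to 4. Of the endothelial markers 10 of 10 tested were higher over both drinks and Itm2a passed, and of the microglia markers 6 of 6 were higher and 0 passed. Of the oligodendrocyte markers 1 of 4 tested and of the striatal markers 1 of 5 tested were higher, and 0 passed in either list. The 9 members other than Bgn had r of 0.13 to 0.79 with the endothelial sum and 0.35 to 0.79 with the striatal sum. In replicates 2 to 4 these were 0.13 to 0.86 and -0.54 to 0.62. Aspn had 0.79 with the endothelial sum and 0.75 with the meninges and fibroblast sum. With the microglia and oligodendrocyte sums r was -0.22 to 0.48 and -0.30 to 0.38 over the 16 libraries. In replicates 2 to 4 the ranges rose to -0.13 to 0.73 and -0.28 to 0.615, both highest for Aspn. There Aspn had 0.73 with the microglia sum and 0.73 with the meninges and fibroblast sum.

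The genes outside the members whose pattern over the 16 libraries was most like theirs were named by Pearson's r alone. For Bgn they were Samd11 (0.92), Tmem104 (0.91) and Ppp1r13l (0.91), with 0.90 to 0.91 in replicates 2 to 4. For Fmod they were Ptgds (0.98), the prostaglandin D synthase of the meninges and choroid plexus, Slc13a3 (0.98) and Gjb2 (0.98), a connexin that is also on the meninges list. For Omd they were Slc13a3, Col23a1 and Slc22a6, and for Ogn Fgl2, Cyp1b1 and Vcam1 (0.94 to 0.97). Lum was most like Mrc2, Cped1 and Reck, Ecm2 most like Ctnna1, Diap3 and Ctsk, and Aspn most like Pla2g4a, Crybg3 and Vim (0.90 to 0.95). H6pd led for both Prelp (0.97) and Podn (0.93), followed by Tcn2 and Hspg2 for Prelp and Bmp7 and Plcxd1 for Podn. For Dcn the nearest genes, Rbp4, Tpbg and Slc13a4, had r of 0.86 to 0.87, which was 0.42 to 0.63 in replicates 2 to 4.

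Genes that build, process or bind the proteins of the members were compared between genotypes over both drinks. In that comparison 4.99% of all tested genes passed. Of the 21 genes for chondroitin and dermatan sulfate chains 18 were tested and 0 passed over both drinks (median log2 fold 0.02). Csgalnact1, which starts chondroitin chains, had 0.21 (limma adjusted p = 0.0852), and Chsy3, a chondroitin synthase, -0.20 (0.129). Of 7 genes for keratan sulfate chains 5 were tested and 0 passed (median 0.08), with B4galt4 at 0.15 and B4galt1 at 0.16. Of 9 proteases that process biglycan or decorin 4 were tested and 0 passed (median -0.03). Bmp1, which removes the propeptide of biglycan, had -0.37 (SE 0.10, limma adjusted p = 0.0520) and Mmp14 0.20. With the term for replicate 1, where 18.0% of tested genes passed, limma called Csgalnact1 and B3galt6 higher, B4galt4 higher and Bmp1 lower in these 3 lists. It called Csgalnact1 higher and Chst1, a keratan sulfate sulfotransferase, lower in replicates 2 to 4, where 12.6% passed.

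Of 22 receptors and ligands that biglycan or decorin bind, 17 were tested (median log2 fold 0.13) and 1 passed over both drinks, against 4.99% of all tested genes. Tgfb2, a TGF-beta ligand, fell by 0.24 (SE 0.07, limma adjusted p = 0.0498), and it passed with the term for replicate 1 but not in replicates 2 to 4. With the term 7 of the 17 passed, Tgfb2 lower and C1qa, C1qb, C1qc, Egfr, Igf1r and Kdr higher, against 18.0% of tested genes. The 5 called in replicates 2 to 4 were C1qa, C1qb, Cd44, Igf1r and Kdr, all higher, against 12.6%. Of 8 other small leucine-rich proteoglycans and related genes only Chadl and Tsku reached the minimum mean of 1 FPKM, with log2 folds of 0.09 and 0.14 and neither passing. Kera, the gene next to Lum, had a mean of 0.0535 FPKM, and Optc, the gene next to Prelp, 0.590 FPKM.

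Genes around Podn differed more than Podn itself. Scp2, a lipid transfer protein gene whose span overlaps Podn on the same strand with 0 shared exon bases, rose by 0.50 over both drinks (SE 0.09, limma adjusted p = 0.00346). Echdc2, the next gene beyond it, fell by 0.46 (SE 0.07, limma adjusted p = 0.00216). Podn had 0.08 with an interval of -0.19 to 0.35. The labels do not state a strand setting, so reads of overlapping genes, among them Prelp and an antisense gene that shares 350 of its exon bases, cannot be told apart with certainty.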

How the data were processed

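Hippocampal RNA was measured in 16 libraries. The tools named in the submitters' processing notes are TopHat, Bowtie, Cufflinks and Cuffdiff, with mm10 as the build and without roles, versions or a strand setting. The authors deposited FPKM, in 1 table of 27670 loci with a column per library and 4 columns of group FPKM that were not used. FPKM carries no read number, so depth and counting error are unknown. The 4269 loci without a gene name were left out, and loci of one name were summed (711 names, among the members only Bgn). The unnamed loci held 46.8% (WT fructose replicate 2) to 70.4% (BgnKO fructose replicate 4) of the FPKM of a library.

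Tests used limma 3.58.1 in R 4.3.3 (4 group means, no block, eBayes with a trend) on log2(FPKM + 1), a scale that understates the change of genes with low values, for genes whose mean FPKM across all 16 was 1 or more, with Benjamini-Hochberg adjustment over all 12648 and a threshold of 0.05. The fit was run on simulated data with known folds and independent normal noise for each gene and library. That noise held no replicate 1 effect and no genes that vary together, so the simulation does not cover those features of these data. Bgn was also tested by 2-sided exact permutation, and correlations by 100000 permutations (SciPy 1.17.1), whose smallest possible p is 1e-05. The members, the 15 lists and the tests were chosen with earlier results of these data known. The text names all members, for each the 3 genes most like it, from each pathway list the genes called or otherwise up to 2 of smallest p, and from each marker list the genes called over both drinks, with the 3 of highest level for the meninges list only; the genes called in other settings and the neighbours of members were added after their values were seen. In the lists Ccn4 was found as Wisp1 and Drd1 as Drd1a, Cemip was not found by name, and 4 entries that join several genes (Chpf2, Ly6c1, Slco1a4 and Mobp) were left out.

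Same-numbered libraries deviated together for fructose against water (r of their deviations from the group means 0.118 to 0.699 in WT and 0.197 to 0.612 in BgnKO), a pairing read from the data. Without replicate 1 these were 0.003 to 0.135 and -0.04 to 0.31, so it rests largely on replicate 1. For BgnKO against WT r was -0.04 to 0.69 on water and 0.09 to 0.75 on fructose. Other settings were a pseudocount of 0.1, no filter or a mean of 5 FPKM, quantile normalization, median-ratio rescaling, the highest locus of a name, a term for replicate 1, replicates 2 to 4 alone, a replicate block and leaving out each library. Promoter windows were read from RefSeq and motifs searched on both strands.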

Additional observations from a re-analysis of the deposited data

Results flagged for a closer look

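Among 48 sets of 4 libraries looked at (the 10 genes and the 2 Bgn loci in each group), 6 had a library whose gap to the nearest of the others took up most of the range of the set (Dixon's test at 95%). Chance gives about 1 in 20. Bgn was 4.458 FPKM in BgnKO water replicate 1, against 7.188 to 7.603 FPKM in the other 3, and the minus-strand locus of Bgn was 0.867 FPKM there, against 3.253 to 3.556 FPKM. Dcn was 5.976 FPKM in the library labelled WT fructose replicate 1, against 41.0 to 46.37 FPKM, and Prelp was 9.375 FPKM in the same library, against 19.89 to 20.81 FPKM. Dcn was also 22.42 FPKM in WT water replicate 2, against 44.19 to 47.28 FPKM, and 49.52 FPKM in BgnKO water replicate 2, against 42.11 to 42.30 FPKM. Of the 6 values, 4 are from a replicate 1 library. The interaction of genotype and drink passed for 0 members.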

How the results depend on the processing

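The fall of Bgn over both drinks passed in every setting run (log2 fold -1.29 to -0.97 and limma adjusted p 0.000299 to 0.0401 over 16 fits without 1 library). On water Bgn passed with a term for replicate 1 (-1.09), in replicates 2 to 4 (-1.12) and with the replicate block (-1.09, adjusted p = 0.0342), on fructose likewise (-1.07, -1.40 and -1.07, adjusted p = 0.00858 with the block), and in 1 of 16 leave-one-out fits on each drink (-1.28 to -0.87 and -1.49 to -0.89). The differences by exact permutation kept their side without any 1 library. Genes called on water, on fructose and over both were 49, 475 and 631. A minimum mean of 5 FPKM, which tests fewer genes, gave 26, 313 and 414, a term for replicate 1 126, 2190 and 2279, replicates 2 to 4 79, 1377 and 1590, and the replicate block 125, 2483 and 2508. Without 1 library the ranges were 30 to 57, 147 to 940 and 392 to 1061. For fructose, replicates 2 to 4 gave 3 genes in WT, 2 over both genotypes and 2 for the interaction. The block also called Ogn and Ecm2 on fructose (adjusted p = 0.0238 and 0.0406) and over both (0.0116 and 0.0199), and changed no other call of a member. A pseudocount of 0.1 added Ogn and quantile normalization Ecm2 over both drinks; same-numbered libraries of the genotypes were not taken as pairs.

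Some values turned sign. Podn on water had -0.0089 with quantile normalization and -0.057 to 0.11 without 1 library. Without 1 library Dcn had -0.041 to 0.31 on water and -0.20 to 0.72 on fructose, and Fmod -0.023 to 1.34 on fructose. Fructose against water in WT was 0.18 for Bgn, 0.29 for Dcn and 0.32 for Fmod in replicates 2 to 4, and -0.0063 for Ogn with median-ratio rescaling. Without 1 library these were -0.24 to 0.37, -0.71 to 0.22, -0.53 to 0.41 and -0.12 to 0.16. In BgnKO it was 0.026 for Dcn and 0.20 for Fmod in replicates 2 to 4 and 0.086 for Bgn by its highest locus, and -0.29 to 0.045, -0.77 to 0.38 and -0.18 to 0.064 without 1 library. The cause was not tested. Depth is unknown, so precision is limited to the spread between libraries.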
